A study of Mus musculus with 9 samples.

Results

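Severe hyperosmotic stress, 600 mOsm, was compared with moderate stress, 500 mOsm, in mouse embryonic fibroblasts (MEFs), the matrix-producing cells grown out of mouse embryos. All 6 libraries labelled with these intensities were used, of 9 in the series, and the comparison ran over every gene of the deposited table, of which 13082 of 35275 had enough reads to be tested. The cells were of the strain C57Bl/6, grown in DMEM with fetal bovine serum, and carried no altered allele by their labels. The moderate group was 3 libraries of cells given DMEM with 200 mM sucrose (500 mOsm in total), the severe group 3 libraries given 300 mM sucrose (600 mOsm in total), each for 3 h, and the remaining 3 libraries, without sucrose, were the iso-osmolar control. Whether the replicate libraries came from separate cultures, and whether the MEFs were of 1 clone, is not given in the sources used here, so p-values measure only the spread between these libraries.

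Each library held between 21716042 and 26740832 reads counted on genes. Of 14 fibroblast markers, 11 stood above 1 FPKM (reads per kilobase of gene, scaled to the library's total) in every library, among them Col1a1, Vim and Pdgfra, while Fap was at 0 throughout. No marker of endothelial, epithelial or skeletal muscle cells passed 1 FPKM in every library, and 3 of 8 macrophage and leukocyte markers did, Csf1r, Cd14 and Lyz2. Csf1r shares 871 bases with Hmgxb3 on the opposite strand, a gene read at 95.8 to 105 CPM on average, so reads of the 2 genes may be mixed. The summed level of the 6 endothelial markers was 0.211 to 0.265 FPKM in iso-osmolar medium, 3.38 to 3.86 FPKM at 500 mOsm and 0.582 to 0.931 FPKM at 600 mOsm, that of the 8 epithelial markers 0.955 to 1.14, 1.93 to 2.48 and 1.01 to 1.45 FPKM, that of the 6 muscle markers 0.0425 to 0.239, 0.311 to 0.676 and 0.628 to 0.745 FPKM, and that of the macrophage and leukocyte markers 20.7 to 24.1, 15.6 to 26.8 and 20.1 to 28.3 FPKM. The 10 most counted genes took between 7.02% and 7.81% of reads at 600 mOsm and between 6.20% and 6.31% in the other libraries. Among them the predicted gene Gm26917, named here after its values were seen, stood at 4530.5, 5181 and 2906 CPM at 500 mOsm and 7520.2, 6343 and 13141 CPM at 600 mOsm, and its part in other differences was not tested.

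A cell placed in concentrated medium loses water and shrinks. It first takes up ions, and then replaces them with organic osmolytes (amino acids, taurine, inositol, sorbitol) by making more of the transporters and enzymes that supply them, many of them targets of the factor TonEBP (Nfat5). Stress kinases, growth factor receptors and the integrated stress response, which slows translation through eIF2, are switched on at the same time, and these pathways in turn induce immediate early genes, whose transcripts appear within minutes and are short-lived. In RNA from whole cultures, fewer cells of a kind and less RNA per cell cannot be told apart.

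Between the intensities 1560 genes (11.9% of those tested) were higher at 600 mOsm and 2250 (17.2%) lower, by edgeR's quasi-likelihood test with a Benjamini-Hochberg adjusted p under 0.05. With an offset for the GC content and length of genes this split turned round, to 3247 higher and 1872 lower, with 3245 of the 3810 genes first called keeping their call and 2 called in the opposite direction. That offset also moved the median log2 fold change over all genes tested from 0.0061 to 0.071. How much of the change in counts comes from this common shift was not tested, here or in the lists below. Against iso-osmolar medium 1728 genes (13.2%) rose and 1931 (14.8%) fell at 500 mOsm, and 1977 (15.1%) rose and 2617 (20.0%) fell at 600 mOsm. In 5435 genes (41.5%) the 3 libraries of one intensity all lay above the 3 of the other. The comparisons with iso-osmolar medium share their control libraries, so their values are given side by side and are not independent of each other.

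Genes were then sorted by the 3 tests together. A moderate-only rise was a rise at 500 mOsm, a lower level at 600 than at 500 mOsm and no rise at 600 mOsm, and it was met by 739 genes, of which 138 fell below iso-osmolar medium at 600 mOsm. A severe-only rise, the converse, was met by 558 genes, of which 18 fell at 500 mOsm. A moderate-only fall was met by 478 genes and a severe-only fall by 1017, so that those 138 genes also count as severe-only falls and those 18 also as moderate-only falls. The sorting also left 137 genes that rose at both intensities but less at 600 mOsm, 63 that rose more at 600 mOsm, 218 that fell less there and 242 that fell more there, and 514 that differed between the intensities alone. The count of severe-only rises depended on single libraries, with 300 genes without replicate 1 of 600 mOsm, 315 without replicate 3 of 600 mOsm and 371 without replicate 1 of 500 mOsm. The sizes of change in the classes were unlike, with a median log2 fold change between 600 and 500 mOsm of -1.27 in moderate-only rises and 0.24 in severe-only rises, and 418 and 51 of their members past 1 in absolute value.

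**Figure D1:**
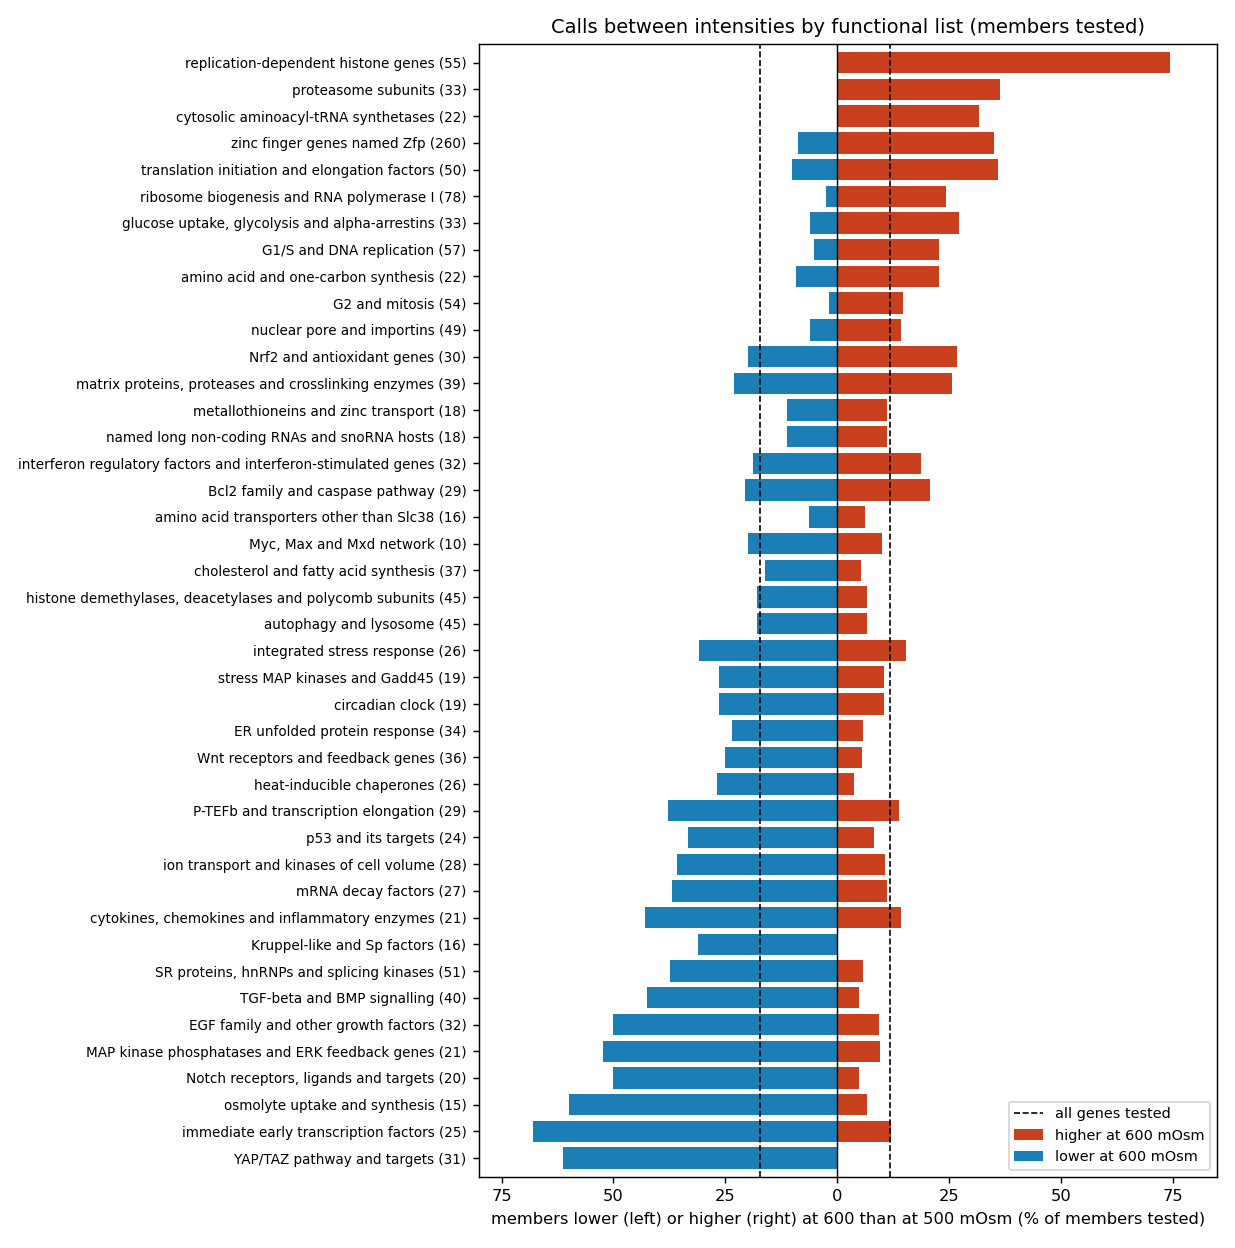
Share of the tested members of each functional list that were higher (right, red) or lower (left, blue) at 600 than at 500 mOsm, with the number of members tested in brackets and dashed lines at the shares over all genes tested, 11.9% higher and 17.2% lower. Histone genes reach 74.5% higher, and immediate early factors 68.0% and YAP/TAZ genes 61.3% lower.

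The lists of genes by function that follow were described by their counts and medians beside those of all genes tested, whose median log2 fold change between 600 and 500 mOsm was 0.0061. Ribosomal proteins, oxidative phosphorylation, focal adhesion and NF-kB lists were not analysed here. Levels are CPM, counts set to the same library total with TMM factors, given in the order of replicates 1, 2 and 3, and a fold change is a log2 difference between group levels. Genes picked by the size of their change, in a list or a class, had to show no overlap between the 2 intensities. For them this separation is no further result. They include Ier3, Fos, Hbegf, Cyr61, Smad7, Hexim1 and Hist2h4. Such separation was met by 41.5% of all genes tested.

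The promoters of the genes with the largest changes in the rising classes were read first. Of the genes whose entry in the promoter table began within 1000 bases of their start in the deposited table these were, in the moderate-only rise, Fam180a and Ier3, an immediate early gene that modulates cell death, and in the severe-only rise Txnip, an alpha-arrestin that holds back glucose uptake. A3galt2, a moderate-only rise with a larger change than Ier3, was left out by that distance, and the other leading severe-only genes had no entry. The 300 bases, 250 before and 50 after each start, are from RefSeq on GRCm38.p6, 5′ to 3′ on the strand of the gene, and capitals mark every match to a set of 12 motifs on either strand.
Fam180a, minus strand, chr6:35326092-35326391: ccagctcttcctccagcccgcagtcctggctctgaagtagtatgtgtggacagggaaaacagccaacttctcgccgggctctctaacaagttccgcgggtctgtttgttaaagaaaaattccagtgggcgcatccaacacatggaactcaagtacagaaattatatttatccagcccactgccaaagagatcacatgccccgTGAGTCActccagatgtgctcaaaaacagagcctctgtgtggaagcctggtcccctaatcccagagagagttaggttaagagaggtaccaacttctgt
Ier3, plus strand, chr17:35821463-35821762: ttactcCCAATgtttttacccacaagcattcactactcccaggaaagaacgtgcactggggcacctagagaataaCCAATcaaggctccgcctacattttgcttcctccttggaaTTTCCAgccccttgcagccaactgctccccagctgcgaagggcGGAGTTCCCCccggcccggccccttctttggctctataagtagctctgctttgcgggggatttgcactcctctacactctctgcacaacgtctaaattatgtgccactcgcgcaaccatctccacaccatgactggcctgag
Txnip, plus strand, chr3:96557707-96558006: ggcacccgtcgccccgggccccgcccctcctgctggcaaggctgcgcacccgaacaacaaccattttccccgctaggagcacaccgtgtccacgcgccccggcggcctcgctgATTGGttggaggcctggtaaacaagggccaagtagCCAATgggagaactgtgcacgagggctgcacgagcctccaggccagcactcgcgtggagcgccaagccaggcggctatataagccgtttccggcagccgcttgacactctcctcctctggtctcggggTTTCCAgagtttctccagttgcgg

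The capitals in the Fam180a promoter are 1 AP-1 site (TGANTCA, the element of Fos and Jun dimers), which reads on both strands and begins 48 bases before the gene's start. Those of Ier3 are 2 CCAAT boxes (CCAAT), 1 core of the tonicity element (TGGAAA, on the minus strand) and 1 kappa B site. The Txnip window holds 2 CCAAT boxes, 1 on each strand, and 1 tonicity element core. Of the 8624 promoters of tested genes in the table, 4.45% hold an AP-1 site, 38.7% a CCAAT box, 15.9% the tonicity core and 10.4% a kappa B site, so the short motifs are common. Over the 458 promoters of moderate-only rises these shares were 5.46%, 37.8%, 18.6% and 12.2%, and over the 379 of severe-only rises 5.54%, 42.7%, 18.7% and 6.33%. The CArG box, the site of serum response factor, was in 2.84% of the moderate-only and 1.58% of the severe-only promoters, against 1.28% of all. The TATA box (TATAAA) was in 9.83% and 8.44% of them, against 6.59% of all.

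Beside Fam180a and Ier3, the largest changes among moderate-only rises (with a mean log2 CPM of at least 1) were those of A3galt2, Fos, Gem, a small GTPase that restrains calcium channels, and Gper1, a membrane receptor of estrogen. Gem stood at 11.1, 8.97 and 9.73 CPM in iso-osmolar medium, 132, 128 and 139 CPM at 500 mOsm and 9.04, 9.09 and 7.89 CPM at 600 mOsm (log2 fold change -3.94, standard error 0.085, adjusted p = 5.27e-12). Gper1, which overlaps a gene on the opposite strand with a mean of 79.7 CPM at 500 mOsm, read 1.59, 1.52 and 1.68 CPM in iso-osmolar medium, 8.49, 8.44 and 10.3 CPM at 500 mOsm and 0.753, 0.537 and 0.387 CPM at 600 mOsm (log2 fold change -4.02, standard error 0.19, adjusted p = 1.51e-08). Csrnp1, a nuclear protein of the immediate early response, and Nfkbiz, which steers NF-kB to secondary response genes, rose at 500 mOsm and fell at 600 mOsm, with means of 39.6, 377 and 32.9 CPM and of 16.2, 32.1 and 2.88 CPM in the order of osmolarity. Every moderate library lay above every severe one in these genes, but the rule that named them required this, so it is no further result. Severe-only rises were led by Txnip, Hexim2, the histone genes Hist2h4, Hist1h2ak and Hist1h4d, and Rab26, a GTPase of secretory granules, which stood at 0.865, 0.492 and 0.695 CPM in iso-osmolar medium, 0.943, 0.829 and 1.3 CPM at 500 mOsm and 5.19, 4.88 and 3.79 CPM at 600 mOsm (log2 fold change 2.17, standard error 0.22, adjusted p = 1.04e-05) and shares 698 bases with Traf7, a gene read at 254 to 275 CPM on average. Sertad3, a regulator of E2F-driven transcription, was among the largest moderate-only falls, at 3.19, 3.97 and 4.54 CPM in iso-osmolar medium, 1.07, 0.679 and 0.229 CPM at 500 mOsm and 3.06, 2.73 and 3.6 CPM at 600 mOsm (log2 fold change 2.26, standard error 0.33, adjusted p = 0.000213).

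The rise of osmolyte genes at moderate stress was mostly absent at severe stress. Of 15 tested genes for osmolyte uptake and synthesis, 9 were lower at 600 than at 500 mOsm and 1 was higher, and 6 were moderate-only rises. The list's median log2 fold change was 0.46 at 500 mOsm and -0.016 at 600 mOsm, each against iso-osmolar medium. Akr1b3, the aldose reductase that makes sorbitol, stood at 251, 249.8 and 243 CPM in iso-osmolar medium, 608, 632 and 682 CPM at 500 mOsm and 268, 265 and 275 CPM at 600 mOsm. The iso-osmolar and severe libraries lay side by side, well below every moderate library (log2 fold change -1.25, standard error 0.049, adjusted p = 1.99e-09). The difference between 600 mOsm and iso-osmolar medium did not pass (log2 fold change 0.12, adjusted p = 0.0715), but it did in 4 of 18 alternatives. The taurine transporter Slc6a6 gave 330.4, 328 and 329.6 CPM in iso-osmolar medium, 490.0, 465 and 497 CPM at 500 mOsm and 316, 322 and 296 CPM at 600 mOsm, again with no overlap of the intensities (log2 fold change -0.64, standard error 0.046, adjusted p = 6.67e-07). The inositol transporter Slc5a3 stood at 17.7, 13.9 and 20.0 CPM in iso-osmolar medium, 50.3, 34 and 36.1 CPM at 500 mOsm and 9.59, 11.8 and 8.55 CPM at 600 mOsm. Its severe libraries were the lowest of the 9 (log2 fold change -2.01, standard error 0.17, adjusted p = 2.99e-06), although it shares 29152 bases with Mrps6 on the same strand, so reads of the 2 genes may be mixed. Gdpd5, which breaks down the osmolyte glycerophosphocholine, also rose at 500 mOsm alone (log2 fold change between intensities -1.55, adjusted p = 2.38e-05), and Pnpla6, an esterase that produces glycerophosphocholine, was the 1 member higher at 600 mOsm (0.35, adjusted p = 0.00153). Nfat5 itself read 65, 58.8 and 79.2 CPM in iso-osmolar medium, 96.6, 70.0 and 85.2 CPM at 500 mOsm and 32.2, 45 and 31.9 CPM at 600 mOsm. It did not pass at 500 mOsm (adjusted p = 0.14) and fell at 600 mOsm (log2 fold change -0.90, adjusted p = 0.000609).

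Transport and kinases of cell volume moved less as a group, with 10 of 28 tested members lower at 600 than at 500 mOsm and 3 higher (7 and 8 with the offset for GC content and length), and a median difference of -0.049. Wnk1, a chloride-sensing kinase, and Slc12a2, the cotransporter it activates to bring in sodium, potassium and chloride, were severe-only falls (log2 fold change between intensities -0.45, adjusted p = 0.000401, and -0.57, adjusted p = 0.000335), although the call of Wnk1 was lost with the offset for GC content and length. The volume-regulated anion channel, which releases osmolytes from swollen cells, went the other way in both subunits named here. Lrrc8a, its essential subunit, fell at 500 mOsm from a mean of 13.4 to 4.96 CPM and stood at 8.21 CPM at 600 mOsm (between intensities 0.72, adjusted p = 0.00106). Lrrc8e fell at 500 mOsm and rose at 600 mOsm, with means of 6.15, 3.37 and 8.01 CPM in the order of osmolarity.

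Immediate early transcription factors showed the widest reversal. Of 25 tested, 17 were lower at 600 than at 500 mOsm and 3 higher (1 without replicate 3 of 600 mOsm); 14 rose at 500 mOsm and 1 at 600 mOsm, and 18 were below iso-osmolar medium at 600 mOsm. The median difference between intensities was -1.26. Fos, a partner in the AP-1 dimer, stood at 2.91, 3.07 and 2.54 CPM in iso-osmolar medium, 38.9, 38.3 and 42.6 CPM at 500 mOsm and 2.72, 2.6 and 2.28 CPM at 600 mOsm. The rise at 500 mOsm was absent at 600 mOsm, where the level did not differ from iso-osmolar medium beyond the test (log2 fold change -0.17, adjusted p = 0.381), and the intensities did not overlap (log2 fold change -3.98, standard error 0.11, adjusted p = 3.89e-11). Fosb, its relative, read 43.2, 44.5 and 42.9 CPM at 500 mOsm and 2.97, 3.4 and 3.87 CPM at 600 mOsm (log2 fold change -3.67, standard error 0.098, adjusted p = 3.89e-11). Egr1, a zinc finger factor of the growth response, stood at 197, 209 and 184 CPM in iso-osmolar medium, 906, 807 and 920.0 CPM at 500 mOsm and 166, 169 and 156 CPM at 600 mOsm, and fell below its iso-osmolar level at 600 mOsm. Ier3 stood at 124, 133 and 127 CPM in iso-osmolar medium, 848, 909 and 976 CPM at 500 mOsm and 49.3, 43.1 and 47.1 CPM at 600 mOsm. Severe libraries held the lowest levels of this gene and moderate libraries the highest (log2 fold change -4.29, standard error 0.07, adjusted p = 1.35e-12). Jun, the partner of Fos, was less changed, at 153, 139 and 141 CPM at 500 mOsm and 78.8, 72.2 and 86.1 CPM at 600 mOsm (log2 fold change -0.87, standard error 0.069, adjusted p = 1.44e-06), and Nr4a1, an orphan nuclear receptor, did not pass at 500 mOsm (adjusted p = 0.662) but fell at 600 mOsm (log2 fold change -1.21, adjusted p = 3.33e-07). The kappa B site was in 7 of the 18 promoters of this list that the table holds, against 10.4% of all, those of Egr2, Egr4, Fos, Fosb, Fosl2, Ier3 and Nr4a1.

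**Figure D2:**
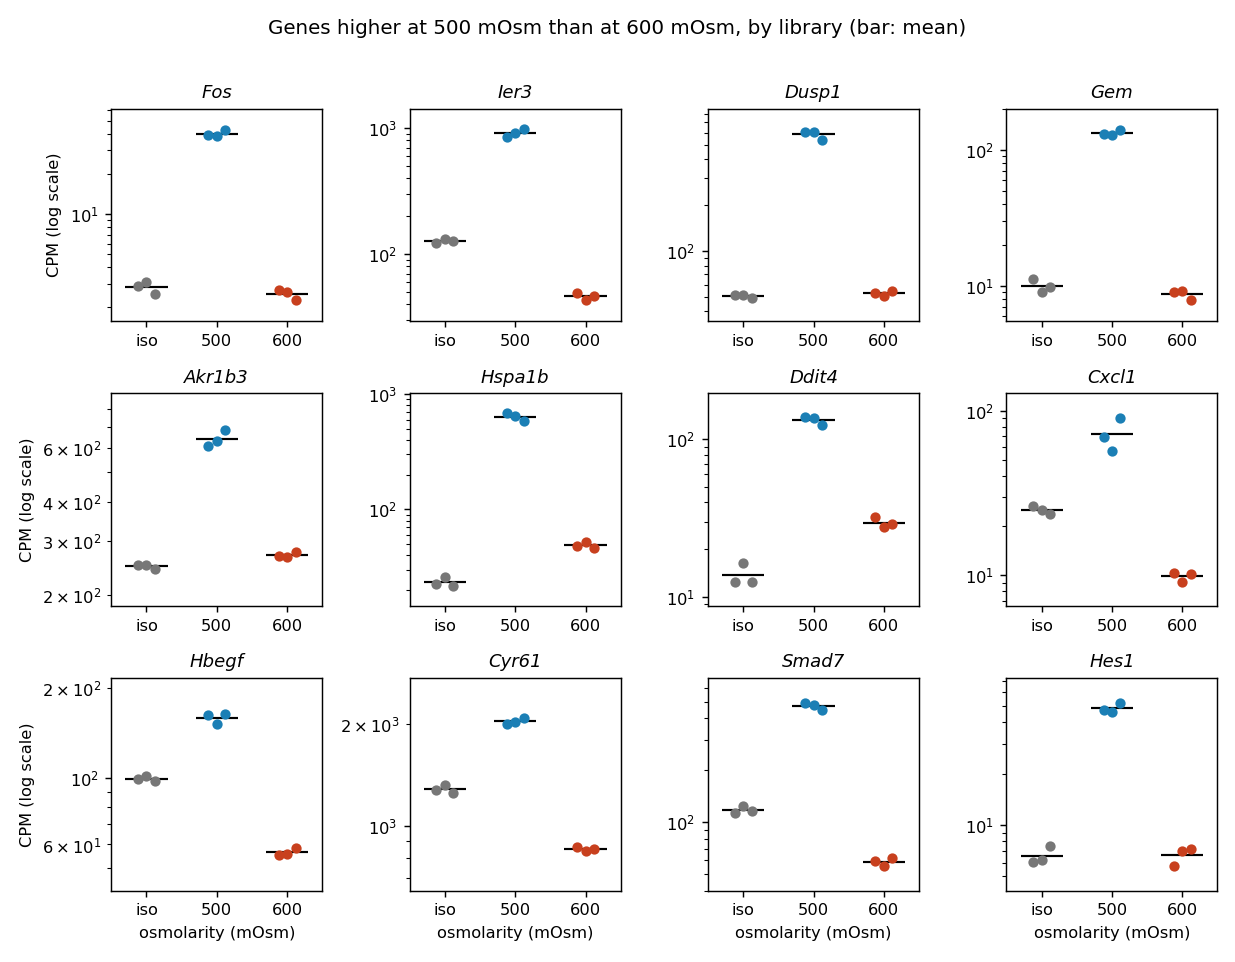
CPM (log axis) of 12 genes in each library, grouped as iso-osmolar, 500 and 600 mOsm, with points for libraries and bars for group means. The moderate libraries lie above the severe ones in every panel, which the naming rule required of genes picked by the size of their change. Ier3, Cxcl1, Hbegf, Cyr61 and Smad7 sit below their iso-osmolar level at 600 mOsm.

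Of the genes that switch kinase signals off, most of those called were lower, with exceptions. Of 21 tested phosphatases and feedback genes of the ERK pathway, 11 were lower at 600 than at 500 mOsm and 2 higher, while 11 had already fallen at 500 mOsm and 16 fell at 600 mOsm, with list medians of -0.38 and -1.02. Dusp1, a phosphatase of the stress kinases, was the 1 member that rose at 500 mOsm, and a moderate-only rise, at 51.6, 51.6 and 48.9 CPM in iso-osmolar medium, 606, 608 and 535 CPM at 500 mOsm and 52.8, 50.7 and 54.4 CPM at 600 mOsm (log2 fold change -3.47, standard error 0.062, adjusted p = 1.36e-12). The ERK phosphatase Dusp6 fell in steps, with 79, 85.6 and 77.2 CPM in iso-osmolar medium, 39.6, 39.2 and 45.4 CPM at 500 mOsm and 29.7, 26.1 and 25.2 CPM at 600 mOsm (log2 fold change -0.62, standard error 0.081, adjusted p = 0.000106). Dusp5, another ERK phosphatase, fell at both intensities and less at 600 mOsm (161, 29.4 and 38.9 CPM on average). Spry2, an inhibitor of receptor signals, was a severe-only fall (between intensities -1.65, adjusted p = 3.52e-08). Among 19 stress kinases and Gadd45 genes 5 were lower at 600 than at 500 mOsm and 2 higher (3 and 4 with the offset), and the 3 Gadd45 genes, which bind kinases and cell cycle proteins, parted ways. Gadd45a was lost at 600 mOsm (means 3.12, 10.7 and 2.35 CPM), Gadd45b rose at both intensities with no difference called between them (85.3, 232 and 248 CPM, adjusted p = 0.148), and Gadd45g rose further, at 40.5, 43.9 and 38.8 CPM in iso-osmolar medium, 79.3, 78.3 and 66.9 CPM at 500 mOsm and 139, 124 and 134 CPM at 600 mOsm (log2 fold change 0.83, standard error 0.073, adjusted p = 3.74e-06).

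Among growth factor genes more were lower than higher at severe stress. Of 32 EGF family and other growth factors and receptors, 16 were lower at 600 than at 500 mOsm and 3 higher, or 14 and 6 with the offset (in the fit without it 6 moderate-only rises and 8 severe-only falls, with genes in both). Hbegf, a ligand shed from the surface to activate the EGF receptor, stood at 99.2, 101 and 97.4 CPM in iso-osmolar medium, 162, 151 and 163 CPM at 500 mOsm and 55.5, 55.7 and 58.3 CPM at 600 mOsm. It rose at 500 mOsm and dropped under the control at 600 mOsm, with no overlap anywhere between the 3 groups (log2 fold change -1.49, standard error 0.05, adjusted p = 4.45e-10). Ereg, another EGF receptor ligand, read 113, 94.2 and 114 CPM at 500 mOsm and 17.4, 22.2 and 18.6 CPM at 600 mOsm (log2 fold change -2.47, standard error 0.12, adjusted p = 1.24e-08), and Areg, of the same ligands, was at or under 0.0455 CPM in every library but those of 500 mOsm, which held 1.27, 1.39 and 0.877 CPM. Vegfa, the factor that calls in blood vessels, fell in steps, at 136, 147 and 131 CPM in iso-osmolar medium, 79.6, 81.7 and 78 CPM at 500 mOsm and 33.2, 31.5 and 29.9 CPM at 600 mOsm (log2 fold change -1.34, standard error 0.061, adjusted p = 8.3e-09). The receptor Egfr did not pass between intensities (log2 fold change 0.21, adjusted p = 0.0755), and Erbb2 was higher at 600 mOsm (0.32, adjusted p = 0.00413).

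Of 21 tested cytokines, chemokines and inflammatory enzymes, 9 were lower at 600 than at 500 mOsm and 3 higher, while 17 further genes of the list, among them Il6, Tnf, Il1a and Il1b, had too few reads to be tested. Ccl2, which draws monocytes, was a moderate-only rise, at 9.56, 10.6 and 8.75 CPM in iso-osmolar medium, 40.0, 35.8 and 38.3 CPM at 500 mOsm and 9.5, 9.76 and 9.2 CPM at 600 mOsm (log2 fold change -2.0, standard error 0.087, adjusted p = 5.86e-09). Cxcl1, which draws neutrophils, stood at 26.5, 24.9 and 23.6 CPM in iso-osmolar medium, 69.4, 56.8 and 91.1 CPM at 500 mOsm and 10.3, 9.13 and 10.1 CPM at 600 mOsm, and the severe libraries were the lowest (log2 fold change -2.88, standard error 0.15, adjusted p = 2.9e-08). Ptgs2, the inducible cyclooxygenase, followed the same order, at 149.7, 150.3 and 168 CPM in iso-osmolar medium, 268, 204 and 213 CPM at 500 mOsm and 47.6, 58.7 and 46 CPM at 600 mOsm (log2 fold change -2.17, standard error 0.11, adjusted p = 2.87e-08). Il34, a ligand of the receptor Csf1r, fell at both intensities and less at 600 mOsm (33.6, 13.8 and 21.4 CPM on average). Il11, a cytokine of the Il6 family, fell at both and more at 600 mOsm (9.89, 4.15 and 0.715 CPM). Cxcl12, a chemokine that fibroblasts make constantly, fell slightly at 500 mOsm and rose slightly at 600 mOsm (between intensities 0.31, adjusted p = 0.000238).

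Interferon-related genes moved both ways, 6 of 32 tested higher at 600 than at 500 mOsm and 6 lower. Irf1, a factor that turns on antiviral and growth-restraining genes, fell at 500 mOsm and rose at 600 mOsm, with 40.7, 39.9 and 40.6 CPM in iso-osmolar medium, 21.3, 21.8 and 21 CPM at 500 mOsm and 54.8, 51.8 and 55 CPM at 600 mOsm (log2 fold change 1.33, standard error 0.058, adjusted p = 5.83e-09). Stat2, a partner of the interferon receptors, was a moderate-only fall (0.81, adjusted p = 0.000809), while Tap1, a peptide transporter of antigen presentation, and Socs3, a brake on cytokine receptors, were moderate-only rises (-1.03, adjusted p = 0.000327, and -0.73, adjusted p = 0.000343). The core of the interferon response element was in 12 of 30 promoters of this list and in 5.01% of severe-only rise promoters, against 2.72% of all.

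The YAP/TAZ pathway, which reads cell shape and tension, had no member called higher at 600 than at 500 mOsm, with edgeR at an adjusted or an unadjusted p under 0.05 (0 of 31) or with DESeq2 (0). Of the 31 tested, 19 were lower, with 6 moderate-only rises and 9 severe-only falls, and the median difference was -0.36. With the offset for GC content and length 1 was higher and 17 lower, and the median difference was -0.22. Cyr61, a secreted matrix protein and target of YAP, stood at 1276, 1315 and 1248 CPM in iso-osmolar medium, 2002, 2027 and 2092 CPM at 500 mOsm and 864, 837 and 849.7 CPM at 600 mOsm. Moderate libraries held the highest level and severe libraries the lowest (log2 fold change -1.26, standard error 0.041, adjusted p = 3.37e-10). The target Ctgf fell in steps, with 149.9, 137 and 141 CPM in iso-osmolar medium, 105, 94.4 and 115 CPM at 500 mOsm and 64.6, 61.7 and 54.1 CPM at 600 mOsm (log2 fold change -0.80, standard error 0.08, adjusted p = 1.08e-05), and Ankrd1, also a target, was a moderate-only rise (between intensities -0.43, adjusted p = 0.0043). Amotl2, which holds YAP outside the nucleus, rose at both intensities and less at 600 mOsm (441, 1048 and 505 CPM). The coactivator Yap1 and the kinase scaffold Sav1 were severe-only falls (-0.45, adjusted p = 1.12e-05, and -0.91, adjusted p = 9.78e-07).

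TGF-beta and BMP signalling gave 17 of 40 tested members lower at 600 than at 500 mOsm and 2 higher. The inhibitory Smad of the pathway, Smad7, stood at 113, 125 and 116 CPM in iso-osmolar medium, 491, 479 and 446 CPM at 500 mOsm and 59.4, 55.6 and 61.5 CPM at 600 mOsm, in an order of moderate, control and severe libraries with no overlap (log2 fold change -3.0, standard error 0.061, adjusted p = 3.8e-12). The nuclear repressors Skil and Tgif1 had the same order of means, 52.6, 25.3 and 14.3 CPM for Skil and 82.2, 34.5 and 21.1 CPM for Tgif1. Id1, a target of BMP signals that blocks differentiation factors, also fell below control at 600 mOsm (between intensities -1.69, adjusted p = 3.88e-10), whereas Id3 stayed above control (154, 263 and 199.9 CPM). Acvr1b, an activin receptor, and Fstl1, an extracellular binder of these ligands, were moderate-only falls (0.80, adjusted p = 0.00252, and 0.31, adjusted p = 0.00129).

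Of 20 tested Notch receptors, ligands and targets, 10 were lower at 600 than at 500 mOsm and 1 higher, with a median difference of -0.35. The target Hes1, a repressor, was a moderate-only rise, at 6.06, 6.23 and 7.57 CPM in iso-osmolar medium, 47.6, 46.3 and 52.1 CPM at 500 mOsm and 5.73, 7.07 and 7.27 CPM at 600 mOsm (log2 fold change -2.86, standard error 0.11, adjusted p = 1.47e-09). Notch1, a receptor, and Rbpj, the DNA-binding partner of all Notch receptors, were severe-only falls (-1.11, adjusted p = 0.00063, and -0.63, adjusted p = 0.000163). Lfng, which glycosylates Notch and tunes its choice of ligand, was the member higher at 600 mOsm, at 24.1, 27.6 and 24.4 CPM in iso-osmolar medium, 10.0, 10.3 and 7.55 CPM at 500 mOsm and 28.9, 26.7 and 33.9 CPM at 600 mOsm, and only its moderate libraries stood apart (log2 fold change 1.68, standard error 0.12, adjusted p = 8.19e-07). In the Wnt list 9 of 36 (25%) were lower and 2 (5.56%) higher (6 and 6 with the offset), while of all genes tested 17.2% were lower and 11.9% higher. Its frizzled receptors split, Fzd5 lower at 600 than at 500 mOsm (-1.13, adjusted p = 6.83e-05) and Fzd7 and Fzd8 higher (0.52, adjusted p = 0.000128, and 1.22, adjusted p = 5.58e-06). Kruppel-like and Sp factors had 5 of 16 (31.2%) lower by edgeR's adjusted p, against 17.2% of all genes tested. Higher were 0 by edgeR's adjusted p, 2 at an unadjusted p under 0.05 and 0 by DESeq2, against 11.9% of all genes by the adjusted p. The number higher was at most 1 in the alternatives without the offset, and 2 with the offset (3 with a replicate block added). Klf4, which rose at both intensities, kept a smaller rise at 600 mOsm (8.29, 33.7 and 21.3 CPM).

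Among heat-inducible chaperones a few rose, and several were lower at severe than at moderate stress. Of 26 tested, 7 (26.9%) were lower at 600 than at 500 mOsm and 1 (3.85%) higher, against 17.2% and 11.9% of all genes tested. With the offset 11 were lower and 2 higher. Against iso-osmolar medium 8 rose at 500 mOsm and 6 at 600 mOsm. The inducible Hsp70 gene Hspa1b stood at 22.4, 25.8 and 21.6 CPM in iso-osmolar medium, 680.2, 637 and 580.2 CPM at 500 mOsm and 47.9, 51.6 and 46.4 CPM at 600 mOsm. The moderate libraries lay far above the severe ones, which still exceeded the control (log2 fold change -3.7, standard error 0.079, adjusted p = 5.27e-12, against control log2 fold change 1.06, adjusted p = 8.13e-07). The near-identical copy Hspa1a showed the same order at a lower level (0.212, 6.17 and 2.2 CPM), and reads of the pair can be split arbitrarily between them. The cochaperone Dnajb1 did not pass at either intensity. The core of the heat shock element (GAANNTTC) was in 10 of the 19 promoters of this list in the table, those of both Hsp70 genes included, against 5.60% of all promoters.

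In the integrated stress response list 8 of 26 tested members (30.8%) were lower at 600 than at 500 mOsm and 4 (15.4%) higher. Of all genes tested 17.2% were lower and 11.9% higher. The offset for GC content and length gave 7 members lower and 9 higher. Without replicate 2 of 500 mOsm, replicate 1 of 600 mOsm or replicate 3 of 600 mOsm, 2 members were higher. Atf4, the central factor of this response, was a small moderate-only rise, at 428, 428 and 433 CPM at 500 mOsm and 390.1, 353 and 378 CPM at 600 mOsm (log2 fold change -0.20, standard error 0.045, adjusted p = 0.00507). Ddit4, an inhibitor of mTORC1, stood at 12.3, 16.3 and 12.4 CPM in iso-osmolar medium, 139, 137 and 123 CPM at 500 mOsm and 32.2, 27.7 and 28.8 CPM at 600 mOsm, and Atf3, a repressor induced by several stresses, at 2.56, 21.1 and 3.96 CPM on average. Both rose at both intensities and less at 600 mOsm (log2 fold change -2.17, standard error 0.097, adjusted p = 7.64e-09 for Ddit4). Ppp1r15a, the phosphatase subunit that restores translation, kept this order too (between intensities -2.73). Ddit3, which encodes the death-promoting factor CHOP, was instead a severe-only rise, at 9.88, 7.74 and 8.63 CPM in iso-osmolar medium, 8.12, 8.67 and 8.39 CPM at 500 mOsm and 13.5, 13.7 and 15.2 CPM at 600 mOsm (log2 fold change 0.76, standard error 0.10, adjusted p = 0.000143). It shares 68 bases with Mars on the opposite strand, read at 238, 244 and 272 CPM on average in the order of osmolarity, so reads of the 2 genes may be mixed. Amino acid and one-carbon synthesis had 5 of 22 higher and 2 lower (12 and 2 with the offset), with 2 higher without replicate 1 or replicate 3 of 500 mOsm and 3 without replicate 1 or replicate 3 of 600 mOsm. Phgdh, the first enzyme of serine synthesis, read 1184, 1272 and 1199 CPM at 500 mOsm and 1419, 1394 and 1453 CPM at 600 mOsm (log2 fold change 0.22, standard error 0.044, adjusted p = 0.00233), and Asns, asparagine synthetase, differed by 0.20 (adjusted p = 0.0102). Other amino acid transporters had 1 of 16 in each direction. The unfolded protein response of the endoplasmic reticulum had 8 of 34 lower and 2 higher (5 and 8 with the offset), led by Dnajb9, a cochaperone of the lumen (8.19, 10.8 and 5.15 CPM), and Hspa5, its main chaperone, was a severe-only fall (-0.41, adjusted p = 0.000682).

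Of 24 tested p53 genes 8 (33.3%) were lower at 600 than at 500 mOsm and 2 (8.33%) higher, against 17.2% and 11.9% of all genes tested. Cdkn1a, the p21 inhibitor of cell cycle kinases, stood at 16.3, 17.3 and 14.6 CPM in iso-osmolar medium, 19.7, 23.9 and 21.7 CPM at 500 mOsm and 5.57, 4.34 and 4.41 CPM at 600 mOsm. It lost more than its moderate rise (log2 fold change -2.19, standard error 0.12, adjusted p = 5.18e-08). Mdm2, the ligase that removes p53, was a severe-only fall (-0.77, adjusted p = 5.52e-06), and Bbc3, the death-promoting PUMA, a moderate-only fall, with 3.28, 3.85 and 4.7 CPM in iso-osmolar medium, 1.76, 1.62 and 1.07 CPM at 500 mOsm and 3.43, 2.78 and 4.18 CPM at 600 mOsm (log2 fold change 1.23, standard error 0.23, adjusted p = 0.00128). The Bcl2 family and caspase list had 6 of 29 (20.7%) in each direction, against 17.2% lower and 11.9% higher of all genes tested. With the offset 8 were higher and 3 lower, and 3 were higher without replicate 3 of 500 mOsm or replicate 3 of 600 mOsm. Mcl1, which protects from death, was a severe-only fall (-0.46, adjusted p = 0.000171), as was Bcl2l11, which promotes it (-1.61, adjusted p = 1.25e-05), and Casp2 was a moderate-only fall (0.64, adjusted p = 0.000132).

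Among transcription elongation genes, both inhibitors of the kinase P-TEFb were higher at severe stress, while most of the genes called were lower, 11 of 29 tested against 4 higher, an order that the offset for GC content and length turned to 7 lower and 10 higher, with 7 lower without replicate 1 of 500 mOsm. Hexim1, which binds P-TEFb and holds it inactive, stood at 49.8, 51.7 and 51.3 CPM in iso-osmolar medium, 108, 102 and 104 CPM at 500 mOsm and 498, 469 and 469.6 CPM at 600 mOsm, and each group lay apart from the next (log2 fold change 2.19, standard error 0.047, adjusted p = 5.27e-12). Hexim2, which has the same activity, fell slightly at 500 mOsm and rose at 600 mOsm, with 2.96, 2.91 and 2.54 CPM in iso-osmolar medium, 1.72, 2.07 and 2.25 CPM at 500 mOsm and 10.0, 9.81 and 10.6 CPM at 600 mOsm (log2 fold change 2.32, standard error 0.13, adjusted p = 4.95e-08). P-TEFb itself, Cdk9 with Ccnt1, gave 62.8, 61.8 and 60.9 CPM at 500 mOsm and 54.9, 56.9 and 48.3 CPM at 600 mOsm for Cdk9 (log2 fold change -0.21, standard error 0.062, adjusted p = 0.0209), a call lost without replicate 1 of 500 mOsm (adjusted p = 0.0625) or replicate 3 of 600 mOsm (adjusted p = 0.0856), and Ccnt1 did not pass between intensities (adjusted p = 0.772). Aff1, a scaffold of the super elongation complex, fell at both intensities and more at 600 mOsm (means 119, 99.5 and 55.3 CPM), and Ell, an elongation factor of that complex, fell at 500 mOsm and was higher at 600 than at 500 mOsm (0.56, adjusted p = 2.05e-05).

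**Figure D3:**
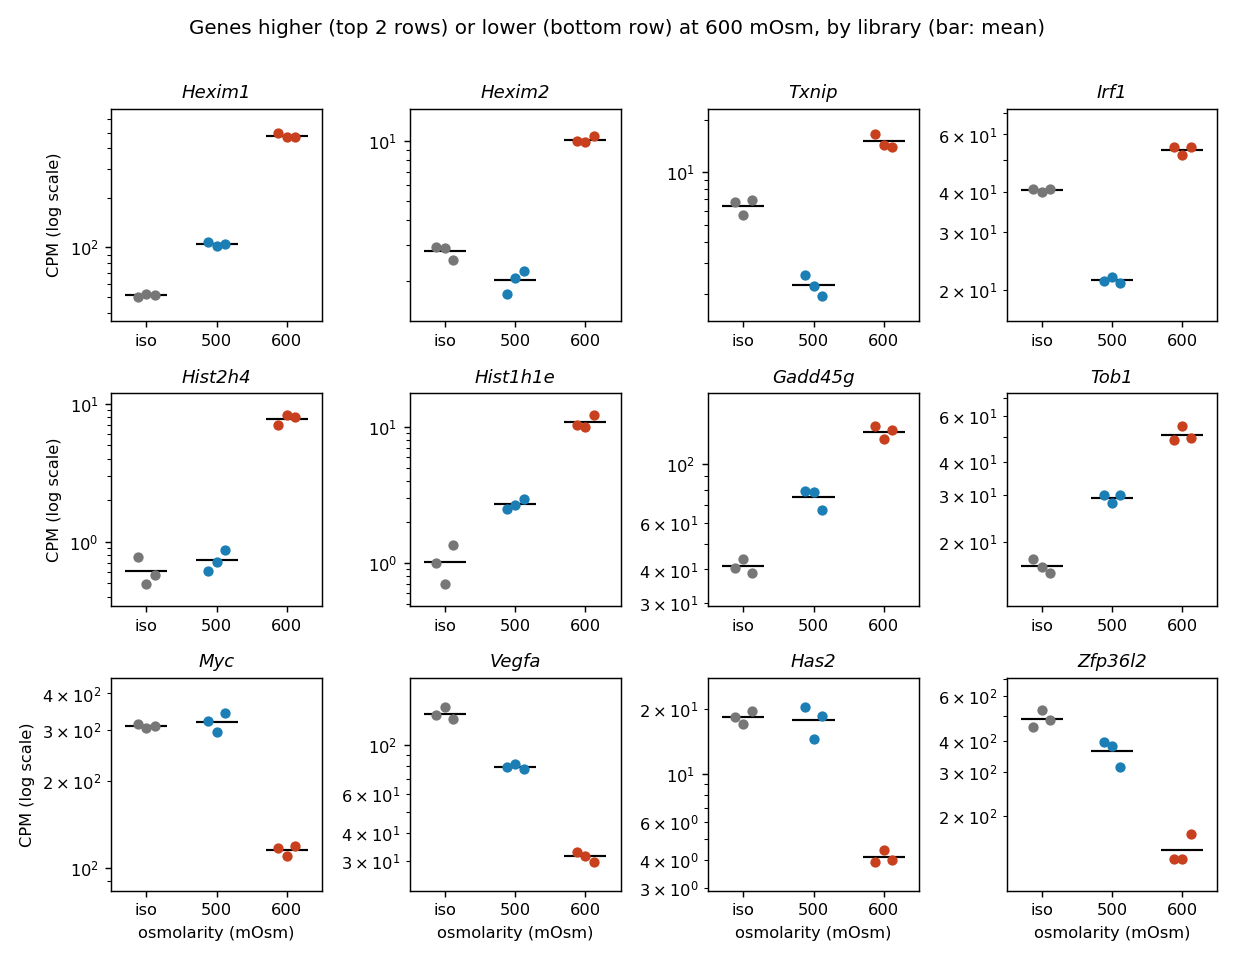
CPM (log axis) of 12 genes in each library, grouped as iso-osmolar, 500 and 600 mOsm, with points for libraries and bars for group means. The upper 8 genes are highest at 600 mOsm, Hexim2, Txnip and Irf1 after a dip at 500 mOsm, and Myc, Vegfa, Has2 and Zfp36l2 are lowest there.

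Histone genes had the highest share of members higher at severe stress among the 42 lists. Of 55 tested replication-dependent histone genes 41 were higher and 0 lower at 600 than at 500 mOsm (0 also at an unadjusted p under 0.05 and by DESeq2), with a median difference of 0.90; 11 had risen at 500 mOsm, 40 rose at 600 mOsm, and 24 were severe-only rises. Without single libraries the number higher was between 30 and 42. The core histone gene Hist2h4 stood at 0.774, 0.492 and 0.572 CPM in iso-osmolar medium, 0.615, 0.716 and 0.877 CPM at 500 mOsm and 6.99, 8.28 and 8.08 CPM at 600 mOsm, with the severe libraries alone apart (log2 fold change 3.39, standard error 0.18, adjusted p = 3.14e-08). The linker histone gene Hist1h1e read 1.0, 0.696 and 1.35 CPM in iso-osmolar medium, 2.5, 2.68 and 2.97 CPM at 500 mOsm and 10.5, 10.0 and 12.3 CPM at 600 mOsm, and had also risen at 500 mOsm (log2 fold change 2.01, standard error 0.16, adjusted p = 1.33e-06). A second linker histone gene, Hist1h1d, gave 0.943, 1.09 and 1.07 CPM at 500 mOsm and 4.31, 3.9 and 5.8 CPM at 600 mOsm (log2 fold change 2.17, standard error 0.19, adjusted p = 3.82e-06). Most transcripts of these genes end in a stem-loop without a poly(A) tail, and the libraries were made from RNA bound to poly-T, so the values cover the captured transcripts alone and their share was not measured. The genes are short, with a median length of 476 bases, low in iso-osmolar medium (median 1.64 FPKM) and often near-identical to each other, so that reads may be split between copies. Under the offset for GC content and length 42 were higher.

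Of 57 tested genes of G1/S and DNA replication 13 were higher and 3 lower at 600 than at 500 mOsm. The number higher was 6 without replicate 1 of 500 mOsm and 8 without replicate 3 of 600 mOsm, where 1 was lower, and the offset gave 31 higher and 1 lower. The replication helicase subunit Mcm2 and the licensing factor Cdc6 did not pass at any intensity. Ccne1, the cyclin that starts S phase, read 36.2, 17.1 and 26.7 CPM on average and was higher at 600 than at 500 mOsm (0.64, adjusted p = 1.12e-05). Of 54 genes of G2 and mitosis 25 rose at 500 mOsm and 35 at 600 mOsm. Between intensities 8 (14.8%) were higher and 1 (1.85%) lower at 600 mOsm (23 and 2 with the offset), while of all genes tested 11.9% were higher and 17.2% lower. Plk1, a mitotic kinase, stood at 181, 194 and 187 CPM in iso-osmolar medium, 243, 263 and 251 CPM at 500 mOsm and 281, 268 and 274 CPM at 600 mOsm. It rose at both intensities, and the difference between them did not pass (adjusted p = 0.0714). Cdc20, which opens the exit from mitosis, was a severe-only rise (0.26, adjusted p = 0.00299). Promoters of this list held a CCAAT box in 35 of 43 and the CHR element (TTTGAA) in 28 of 43, against 38.7% and 11.2% of all.

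Some genes of protein turnover and synthesis were higher at severe stress, by small steps. Of 33 proteasome subunits 12 were higher and 0 lower at 600 than at 500 mOsm (1 at an unadjusted p under 0.05, 0 by DESeq2), with 9 severe-only rises and a median difference of 0.11. Psmb3, a subunit of the catalytic core, read 414, 448 and 438 CPM at 500 mOsm and 496, 487 and 519 CPM at 600 mOsm (log2 fold change 0.21, standard error 0.046, adjusted p = 0.00426). Of 22 cytosolic aminoacyl-tRNA synthetases 7 were higher and 0 lower (0 also at an unadjusted p under 0.05 and by DESeq2), and Sars, which charges tRNA with serine, read 562, 599 and 581 CPM at 500 mOsm and 679, 666 and 683 CPM at 600 mOsm (log2 fold change 0.22, standard error 0.044, adjusted p = 0.00226). Of 50 translation factors 18 were higher and 5 lower. Eif3d, a subunit that binds the cap of some mRNAs, was a severe-only rise (0.30, adjusted p = 0.000998), and Pabpc1, which coats poly(A) tails, and Eif4g3, a scaffold of the cap complex, were severe-only falls (-0.23, adjusted p = 0.0045, and -0.75, adjusted p = 1.23e-05). The counts moved with single libraries. The proteasome count was 5 without replicate 1 of 500 mOsm, replicate 1 of 600 mOsm or replicate 3 of 600 mOsm, and the synthetase count 4 without replicate 1 of 600 mOsm. The translation factors lower were 3 without replicate 2 of 500 mOsm or replicate 1 of 600 mOsm. With the offset for GC content and length the counts higher were 19, 16 and 27.

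Some ribosome biogenesis genes fell at moderate stress. Of 78 tested 24 fell at 500 mOsm and 13 at 600 mOsm, while between intensities 19 were higher and 2 lower at 600 mOsm, with 9 moderate-only falls. The number higher was 12 without replicate 1 of 500 mOsm or replicate 3 of 600 mOsm, and 45 with the offset. Nop56, a core protein of box C/D particles, read 451, 431 and 462 CPM in iso-osmolar medium, 387, 382 and 408 CPM at 500 mOsm and 448, 451 and 453 CPM at 600 mOsm (log2 fold change 0.20, standard error 0.044, adjusted p = 0.0044). Polr1b, a large subunit of RNA polymerase I, fell at both intensities and less at 600 mOsm (148, 108 and 125 CPM). Ddx21, a nucleolar helicase, and Gar1, of box H/ACA particles, were severe-only falls (-0.27, adjusted p = 0.00255, and -0.48, adjusted p = 0.000112).

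Many zinc finger genes fell at 500 mOsm and stood higher again at 600 mOsm. Of 260 tested genes named Zfp, a family made up mostly of DNA-binding repressors, 119 fell at 500 mOsm and 60 at 600 mOsm, while between intensities 91 were higher and 23 lower at 600 mOsm. The list medians were -0.43 at 500 mOsm and -0.14 at 600 mOsm against control, and 61 members were moderate-only falls. Zfp866 stood at 4.46, 4.71 and 5.48 CPM in iso-osmolar medium, 0.738, 0.641 and 0.686 CPM at 500 mOsm and 3.73, 3.67 and 3.21 CPM at 600 mOsm, a smaller fall at 600 mOsm (log2 fold change 2.35, standard error 0.18, adjusted p = 8.79e-07). Genes of this family are alike in sequence, so reads may be shared between members. Zfp84 and Zfp747 showed the same dip, with 4.55, 4.75 and 4.87 CPM in iso-osmolar medium, 1.48, 0.98 and 1.33 CPM at 500 mOsm and 4.31, 4.34 and 4.37 CPM at 600 mOsm for Zfp84 (log2 fold change 1.78, standard error 0.16, adjusted p = 3.62e-06) and means of 5.6, 1.4 and 4.51 CPM for Zfp747. Zfp36, whose fingers are of another kind and which binds AU-rich elements of mRNAs to speed their decay, was a moderate-only rise, at 7.74, 8.64 and 9.9 CPM in iso-osmolar medium, 29.4, 28.1 and 31.1 CPM at 500 mOsm and 7.62, 7.88 and 6.92 CPM at 600 mOsm (log2 fold change -1.98, standard error 0.10, adjusted p = 2.39e-08). Zfp362 (between intensities -3.16) and Zfp217 (-1.46) were also lower at 600 mOsm.

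RNA processing genes were often lower at severe stress. Of 51 SR proteins, hnRNPs and splicing kinases 19 were lower at 600 than at 500 mOsm and 3 higher, or 1 higher without any 1 replicate of 500 mOsm or without replicate 1 or replicate 2 of 600 mOsm, and 16 were severe-only falls. Hnrnpd, which binds AU-rich mRNAs, read 159, 140.2 and 135 CPM in iso-osmolar medium, 137, 134 and 148 CPM at 500 mOsm and 93.6, 97.8 and 76.8 CPM at 600 mOsm (log2 fold change -0.64, standard error 0.087, adjusted p = 0.000128), and Hnrnpa0 followed it (-0.63, adjusted p = 0.000582). Srsf3, a small SR protein, did not pass at any intensity. Of 27 mRNA decay factors 10 were lower and 3 higher (6 and 4 with the offset), and 6 were lower without replicate 1 of 600 mOsm. Zfp36l2, a relative of Zfp36, fell in steps, with 453, 529 and 483 CPM in iso-osmolar medium, 396, 382 and 315 CPM at 500 mOsm and 135, 135 and 170.0 CPM at 600 mOsm (log2 fold change -1.31, standard error 0.10, adjusted p = 1.21e-06), whereas Tob1, which recruits the deadenylase, rose in steps, with 17.3, 16.1 and 15.3 CPM in iso-osmolar medium, 30.1, 27.9 and 30.1 CPM at 500 mOsm and 48.6, 54.6 and 49.4 CPM at 600 mOsm (log2 fold change 0.79, standard error 0.072, adjusted p = 4.61e-06). Snhg1, a host gene of small nucleolar RNAs whose transcript is cleared by decay in translation, was a severe-only fall (-0.60, adjusted p = 4.81e-05), in a list of named long non-coding RNAs with 2 of 18 in each direction. Neat1, the scaffold of paraspeckles, fell at both intensities and did not pass between them (73.8, 20.2 and 18 CPM). Myc, the growth factor-driven regulator, was a severe-only fall, at 314, 305 and 309 CPM in iso-osmolar medium, 322, 294 and 341 CPM at 500 mOsm and 118, 111 and 119 CPM at 600 mOsm (log2 fold change -1.46, standard error 0.058, adjusted p = 2.14e-09); the Myc network had 2 of 10 lower and 1 higher (2 and 3 with the offset).

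Txnip had the largest difference among glucose and glycolysis genes. It stood at 6.74, 5.65 and 6.95 CPM in iso-osmolar medium, 2.58, 2.22 and 1.95 CPM at 500 mOsm and 16.7, 14.4 and 14.1 CPM at 600 mOsm, so that the moderate libraries lay below and the severe libraries above the control (log2 fold change 2.74, standard error 0.14, adjusted p = 2.05e-08), while its relative Arrdc4 did not pass at any intensity. Reads of Txnip and of an antisense gene that overlaps it cannot be told apart unless counting used the strand, which is not given in the sources used here. In its list, which also holds glucose transporters and alpha-arrestins, 9 of 33 were higher and 2 lower at 600 than at 500 mOsm, with 5 higher without replicate 3 of 600 mOsm and 18 with the offset. Hk2, a hexokinase, fell at both intensities and less at 600 mOsm (141, 72.4 and 98.4 CPM), the glucose transporter Slc2a1 fell at both with no difference called, and Pdk4, which closes pyruvate to the mitochondrion, was a moderate-only fall (0.67, adjusted p = 0.00749). Against 11.9% and 17.2% of all genes tested, 8 of 30 antioxidant genes (26.7%) were higher and 6 (20%) lower, or 13 and 5 with the offset. Without replicate 1 of 500 mOsm 4 were higher, and without replicate 2 of 500 mOsm 5 were higher and 3 lower. Gpx4, which repairs oxidised lipids, was a severe-only rise (0.28, adjusted p = 0.000381), and Gclm, of glutathione synthesis, a severe-only fall (-0.50, adjusted p = 5.88e-06). Of 37 genes of cholesterol and fatty acid synthesis 17 fell at 500 mOsm and 19 at 600 mOsm. Between intensities 6 (16.2%) were lower and 2 (5.41%) higher, against 17.2% and 11.9% of all genes tested. With the offset 4 were lower and 15 higher. The number lower was 1 to 3 without iso-osmolar replicate 3, any replicate of 500 mOsm, or replicate 1 or replicate 3 of 600 mOsm.

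The fibroblast's own products changed in both directions. Of 39 matrix genes 10 (25.6%) were higher and 9 (23.1%) lower at 600 than at 500 mOsm, or 19 and 8 with the offset. The shares over all genes tested were 11.9% and 17.2%. Col1a1, the main collagen chain, was a severe-only rise, at 8391, 9438 and 8999.6 CPM in iso-osmolar medium, 9261, 8964 and 8364 CPM at 500 mOsm and 11070.0, 10456 and 12226 CPM at 600 mOsm (log2 fold change 0.34, standard error 0.064, adjusted p = 0.00142), and Col3a1 fell at both intensities and less at 600 mOsm (47.5, 19.7 and 30.3 CPM). The hyaluronan synthase Has2 was a severe-only fall, at 18.4, 16.9 and 19.5 CPM in iso-osmolar medium, 20.4, 14.5 and 18.6 CPM at 500 mOsm and 3.93, 4.48 and 4.02 CPM at 600 mOsm (log2 fold change -2.1, standard error 0.13, adjusted p = 2.02e-07), as was Has1 (-2.3, adjusted p = 0.00017). Adamts1, a protease of proteoglycans, rose at 500 mOsm and fell at 600 mOsm (between intensities -1.16, adjusted p = 3.43e-08).

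**Figure D4:**
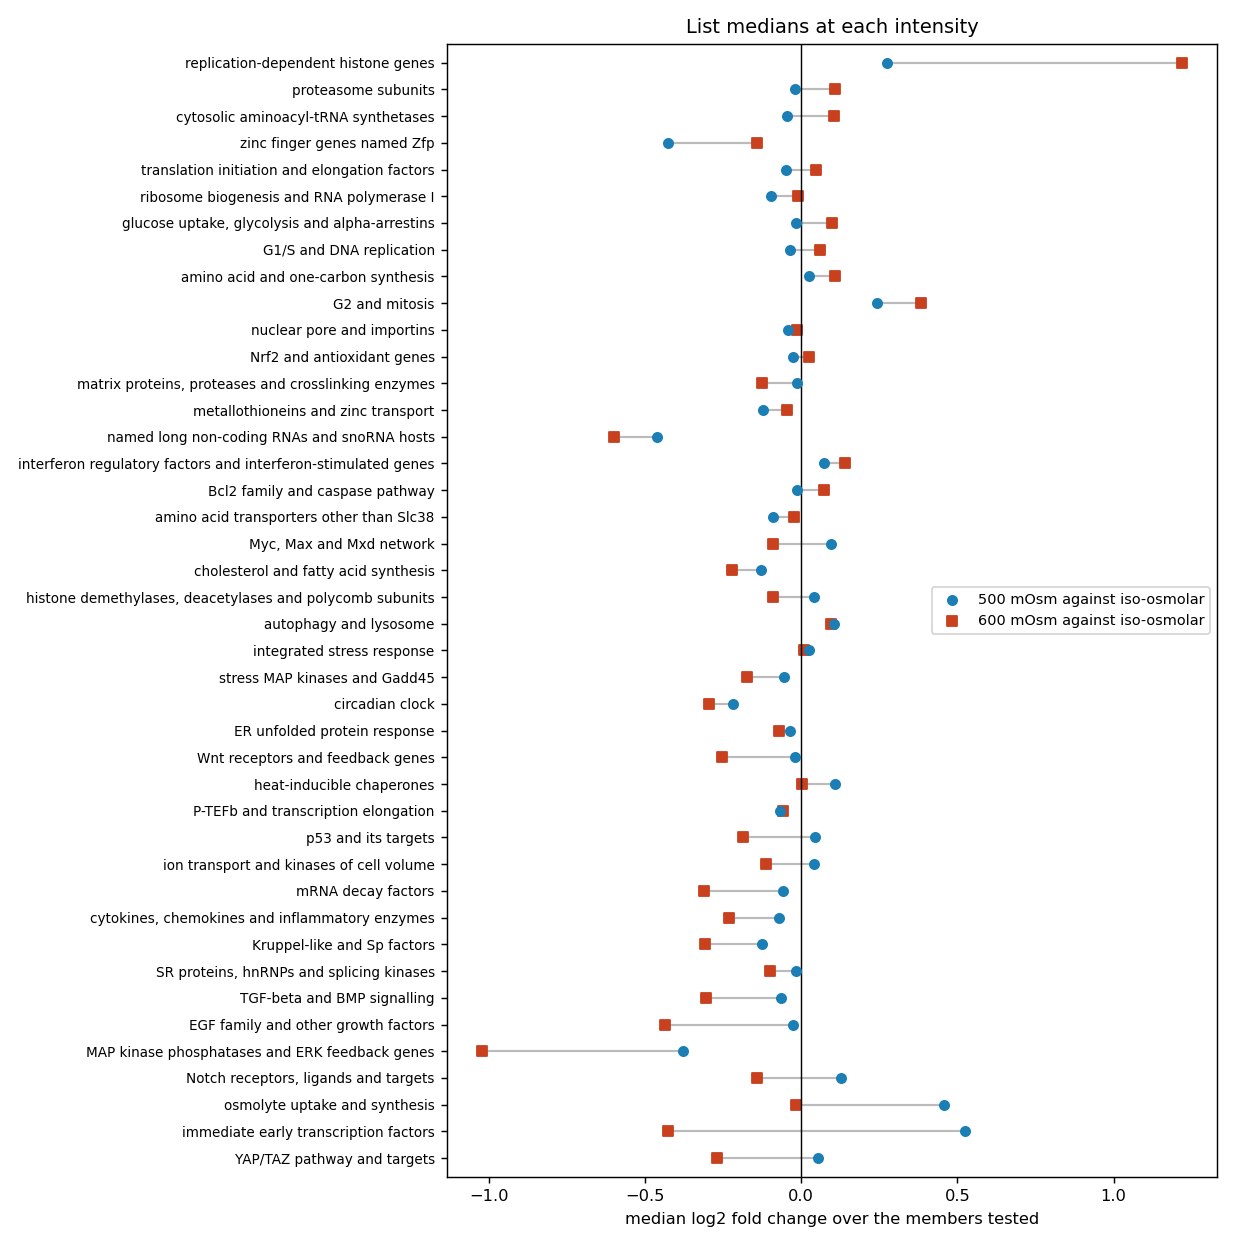
Median log2 fold change over the tested members of each list, for 500 mOsm (blue circles) and 600 mOsm (red squares) against the iso-osmolar libraries that both share. Osmolyte genes sit at 0.46 and -0.016, immediate early factors at 0.52 and -0.42, histone genes at 0.28 and 1.22 and Zfp genes at -0.43 and -0.14.

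Circadian clock genes had 5 of 19 lower at 600 than at 500 mOsm and 2 higher (1 and 3 with the offset; 2 lower without replicate 1 or replicate 3 of 600 mOsm, and 3 without replicate 1 or replicate 3 of 500 mOsm), with Per1 and Cry2, repressors of the clock, falling less at 600 mOsm (46.3, 14.2 and 33.2 CPM for Per1 on average, 12.4, 4.6 and 10.1 CPM for Cry2). Autophagy and lysosome genes had 8 of 45 (17.8%) lower and 3 (6.67%) higher, against 17.2% and 11.9% of all genes tested. With the offset 3 were lower and 10 higher. There were 5 lower without replicate 3 of 500 mOsm, replicate 1 of 600 mOsm or replicate 3 of 600 mOsm. The number higher was 5 without replicate 3 of 500 mOsm. Of 45 histone demethylases, deacetylases and polycomb subunits 8 (17.8%) were lower and 3 (6.67%) higher. With the offset these counts were 10 and 13, and 5 were higher without replicate 2 of 600 mOsm. The shares lower in this list and the autophagy list were near that of all genes tested. Nuclear pore and importin genes had 3 of 49 (6.12%) lower and 7 (14.3%) higher (1 and 21 with the offset). Metallothioneins and zinc transport had 2 of 18 (11.1%) in each direction. Kpna2, which carries cargo into the nucleus, was a severe-only rise, at 423, 410.5 and 452 CPM at 500 mOsm and 623, 608 and 583 CPM at 600 mOsm (log2 fold change 0.50, standard error 0.054, adjusted p = 2.19e-05). Sqstm1, the autophagy receptor p62, read 625, 667 and 633 CPM at 500 mOsm and 508, 485 and 528 CPM at 600 mOsm and ended under control at 600 mOsm (log2 fold change -0.34, standard error 0.048, adjusted p = 0.000179).

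The classes differed in the kind of gene they held. In moderate-only rises the median level in iso-osmolar medium was 0.905 FPKM, and 378 of 739 members (51.2%) stood under 1 FPKM there, against 23.1% of all genes tested. In severe-only rises the median was 47.3 FPKM and 44 of 558 (7.89%) were under 1 FPKM. A gene that is silent in control medium passes the filter on low counts only where it is high, so these counts describe the genes that passed and support nothing by themselves. Of genes under 1 FPKM in control medium that were tested, 749 rose at 500 mOsm, 353 rose at 600 mOsm, and 474 rose at 500 mOsm and were lower at 600 mOsm. Of the 749, 284 (37.9%) lay within 20000 bases downstream of an expressed gene on the same strand, as did 394 of the 2032 (19.4%) that did not pass at 500 mOsm and 9.96% of all 25203 genes under 1 FPKM in the table. So did 132 of the 353 (37.4%) that rose at 600 mOsm and 171 of the 474 (36.1%), so the share was alike at the 2 intensities. The markers of endothelial cells were highest at 500 mOsm as well, and their part in these rises was not tested. A3galt2, a glycosyltransferase, lay 2483 bases downstream of Phc2, and read 0.228, 0.0819 and 0.327 CPM in iso-osmolar medium, 10.2, 8.97 and 9.31 CPM at 500 mOsm and 0.335, 0.224 and 0.271 CPM at 600 mOsm (log2 fold change -5.07, standard error 0.23, adjusted p = 7.62e-09). Fam180a, 182765 bases from its nearest such neighbour, read 0.683, 0.696 and 0.736 CPM in iso-osmolar medium, 12.1, 14.2 and 16.8 CPM at 500 mOsm and 0.209, 0.224 and 0.232 CPM at 600 mOsm (log2 fold change -5.98, standard error 0.21, adjusted p = 5.74e-10).

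Gene size ran with direction. In 4 equal groups of tested genes by genomic span, the group with the shortest span (median 3518 bases) had 19.4% of its genes higher at 600 than at 500 mOsm and 10.6% lower, and the group with the longest (median 91780 bases) 3.15% higher and 29.6% lower. Among those whose average log2 CPM was at least 5, the same span groups gave 33% higher and 8.36% lower against 4.39% and 42.4%, so the pattern was present among well-counted genes too. Severe-only falls had a median span of 49910 bases and a median of 11 exons, and severe-only rises 7657 bases and 4 exons, against 20340 bases and 7 exons over all genes tested. Span and transcript length go together, and with the offset for GC content and transcript length, applied to the span groups after the data were seen, the longest group had 14.3% higher and 20.7% lower and the shortest 28.6% and 11%. The longest group kept the lowest share higher and the highest share lower with the offset.

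**Figure D5:**
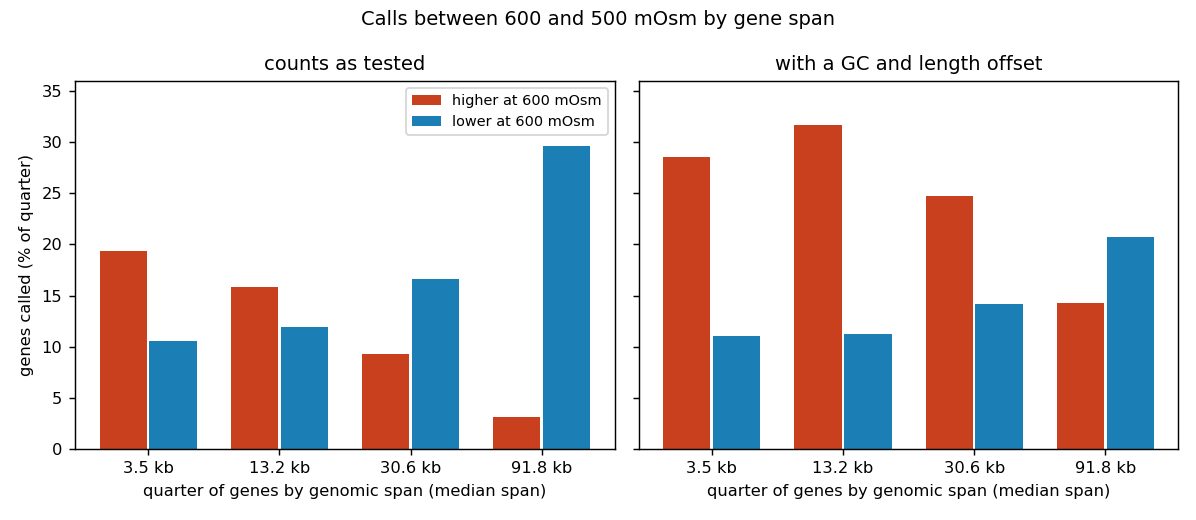
Share of genes called higher (red) or lower (blue) at 600 than at 500 mOsm in 4 equal groups of tested genes by genomic span, labelled with their median span, for counts as tested (left) and with an offset for GC content and length (right). In the left panel the share lower climbs from 10.6% to 29.6% and the share higher drops from 19.4% to 3.15%.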

How the data were processed

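Poly(A) RNA of 9 MEF libraries was sequenced in pairs of reads. Per the labels and the study's methods, the authors discarded low-quality reads and aligned to mm10, with STAR and CASAVA 1.8 in the submitters' processing notes. The counting tool, strand setting and annotation release are not given in the sources used here. The authors deposited raw counts of reads per gene and FPKM values, which equal the count divided by gene length in kilobases and by the library's total count. Columns of the authors' own comparisons were not used.

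Counts were tested with edgeR 4.0.16 (R 4.3.3; limma 3.58.1) by the quasi-likelihood test after TMM scaling and edgeR's filter on low counts, in 1 fit of all 9 libraries with 1 mean per group, at a Benjamini-Hochberg adjusted p under 0.05. Log2 fold changes between the intensities had a standard error of 0.0995 in the median gene, with a biological coefficient of variation of 0.0756. FPKM values served to describe levels in control medium and markers. GC content came from GENCODE vM21, promoters from RefSeq, and offsets for GC content and length from mgcv 1.9.3; 34490 gene identifiers matched GENCODE and 16032 genes had a promoter. The code was tested on simulated data.

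Genes were named by role in a list, by the 3 largest changes per list and direction and by the 6 largest per class, above a mean log2 CPM of 1 and with no overlap between the intensities. The members, lists and naming rule were chosen with earlier results of these data known, so adjusted p-values are over all genes tested; a few genes that the rule names are not reported here. Alternatives were RLE factors, library size alone, no filter, at least 10 counts in every library, DESeq2 1.42.0, a fit of the 6 stressed libraries, replicate number as a block, the offsets, and each of the 9 libraries left out. Whether shared replicate numbers pair the samples is not given in the sources used here. The deviations of same-numbered libraries correlated at r = -0.535 to 0.45 over 9 pairs. Deviations from a mean of 3 libraries constrain each other, so these values cannot decide it.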

Additional observations from a re-analysis of the deposited data

How the results depend on the processing

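Across 18 alternatives no call between 600 and 500 mOsm turned its direction except 2 genes under the offset for GC content and length. That offset moved the counts most, to 3247 genes higher at 600 mOsm, 1070 severe-only rises and 1249 moderate-only falls, and with a replicate block added to 2866, 851 and 1123, with 645 severe-only falls. With at least 10 counts in every library 472 moderate-only rises were found, since the filter removes genes silent in the other media. The replicate block alone gave 1153 genes higher and 1936 lower at 600 mOsm, 347 severe-only rises, 661 moderate-only rises, 407 moderate-only falls and 879 severe-only falls, and 3080 of 3810 calls were kept. Whether the numbers pair the libraries is not known, so these values stand beside those of the fit without a block. Leaving out single libraries gave 1059 to 1556 genes higher, 1878 to 2334 lower, 638 to 809 moderate-only rises, 300 to 608 severe-only rises, 402 to 479 moderate-only falls and 785 to 999 severe-only falls. The offset turned the balance of calls in the lists of cell volume, the integrated stress and unfolded protein responses, stress kinases, elongation, sterol synthesis, the clock, autophagy, the Myc network and chromatin, and matrix, antioxidant and amino acid synthesis genes lost their excess of higher genes without single libraries. The offset also moved the median log2 fold change between intensities over all genes tested to 0.071. The cause was not tested for the offset, the block or the single libraries.

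Of 411 results of 137 printed genes, 5 values under alternatives had the opposite sign and passed there, all under the offset, and none of these results passed in the fit reported. They were a log2 fold change between intensities of 0.36 for Neat1 (0.36 with the block), and changes at 500 mOsm of -0.18 for Gpx4 and -0.17 for Phgdh (-0.17 with the block). Between intensities the offset ended the calls of Wnk1 and Cdk9 and made calls of Egfr, Ccnt1, Plk1 and Gadd45b. Egfr also passed without replicate 1 of 500 mOsm (adjusted p = 0.0391 by edgeR) and Plk1 without replicate 2 of 500 mOsm (adjusted p = 0.0471). Against iso-osmolar medium the fall of Gadd45a and the rise of Ell at 600 mOsm each changed in 10 alternatives, the rise of Hist1h1d at 500 mOsm in 9, the fall of Cry2 at 600 mOsm and of Cxcl12 at 500 mOsm in 8, and the fall of Hexim2 at 500 mOsm and the rise of Lrrc8e at 600 mOsm in 7. The class of these genes is therefore less firm than their difference between intensities.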

Other observations

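Among the genes nearly silent in iso-osmolar medium that were read at 500 mOsm, several are known from other tissues, and they are named here after their values were seen. Ctrb1, a digestive enzyme precursor of the pancreas, stood at 0.0455, 0.041 and 0.0409 CPM in iso-osmolar medium, 27.8, 23.9 and 23.1 CPM at 500 mOsm and 0.67, 0.224 and 0.271 CPM at 600 mOsm (log2 fold change -5.99, standard error 0.21, adjusted p = 6.85e-10), and its start lies 19475 bases downstream of the end of Bcar1 on the same strand. The adhesion molecule Pecam1 of endothelial cells read 0.182, 0.205 and 0.45 CPM in iso-osmolar medium, 10.9, 10.6 and 12 CPM at 500 mOsm and 1.3, 2.37 and 1.35 CPM at 600 mOsm (log2 fold change -2.74, standard error 0.20, adjusted p = 7.86e-07), 17625 bases from Polg2. The muscle glycogen phosphorylase Pygm gave 0.0911, 0.328 and 0.572 CPM in iso-osmolar medium, 6.15, 4.98 and 5.11 CPM at 500 mOsm and 0.377, 0.761 and 0.773 CPM at 600 mOsm (log2 fold change -3.07, standard error 0.29, adjusted p = 6.51e-06), 6369 bases from Sf1. All moderate libraries of these genes lay above all severe ones, but the genes were picked with their values known, so this supports nothing by itself. Reads from transcripts that run on past the end of an upstream gene and reads of the genes themselves cannot be told apart in counts per gene.

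Of the 42 lists, promoters of cytosolic tRNA synthetases held the CEBP-ATF element (TTGCATCA), a site of Atf4, in 4 of 14, against 0.545% of all 8624 promoters of tested genes. The 4 were those of Aars, Iars, Tars and Yars, and list and motif were picked out of a search of all lists for all motifs. Atf4 itself was lower at 600 than at 500 mOsm (log2 fold change -0.20, standard error 0.045, adjusted p = 0.00507). Of the synthetase genes 7 of 22 were higher, a count over the whole list. Of the genes with the motif, Aars passed between intensities in 4 of 19 settings, and the calls of Iars, Tars and Yars are not given here. No test linked the motif to the change.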
